A study of Mus musculus with 11 samples.

Results

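Before a cell divides it copies its DNA once, in S phase, and the genes examined here encode the proteins that start and carry out that copying. The set holds 39 genes, chosen by name from the 55487 gene IDs of the deposited count table: 10 that license replication origins, 4 that activate the helicase, 6 of the polymerases and primase, 6 of the sliding clamp, its loader and Okazaki fragment joining, 5 of nucleotide supply, 4 cyclins and E2F factors of the G1/S switch, and 4 that deal with chromatin on new DNA. Each name matched 1 row, and all 39 passed the filter on low counts. RNA was sequenced from bone marrow-derived macrophages of C57BL/6J mice aged 2 to 5 months. Macrophages of this kind are grown from marrow cells, here for 5 to 6 days in medium with 10% CMG-conditioned medium and then in medium with 2%. The 7 control libraries came from cells given 0 µg/ml CYR61 and the 4 CYR61 libraries from cells given 0.5 µg/ml of this secreted, integrin-binding matrix protein, both for 24 h. A vehicle in the controls is not mentioned in the labels, and neither is the number of mice or dishes behind the libraries, so the spread that p-values rest on may be partly technical.

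In G1, the origin recognition complex, Cdc6 and Cdt1 load the Mcm2 to Mcm7 helicase onto DNA. Cyclin E and its kinase then free E2F factors from the retinoblastoma proteins, and E2F factors raise transcription of many replication genes. In S phase the helicase is completed with Cdc45 and the GINS complex, primase and polymerases copy the strands, and the clamp Pcna holds polymerases on DNA. Genes of G2 and mitosis, transcribed later in the cycle, are largely controlled through other promoter elements, among them CCAAT boxes and the cell cycle homology region. Macrophages grown with a colony-stimulating factor can still divide, so both gene sets are expressed in such cultures.

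The promoters differ in letters as well as in their known regulators, and 3 are printed to show the E2F type beside the G2 type. The sequences are those of RefSeq on GRCm38.p6, the 250 bases before the listed start, given 5′ to 3′ on the strand of the gene. Capitals mark, on either strand, the E2F letters TTTCCCGC, TTTCGCGC, TTTGCCGC and TTTGGCGC in Mcm5 and Mcm6, the letters CCAAT in all 3, and TTTGAA, the core of the cell cycle homology region, in Mki67. Mcm5 and Mcm6 encode helicase subunits, and Mki67 encodes the proliferation marker Ki-67.
Mcm5, chr8:75109259-75109508, plus strand: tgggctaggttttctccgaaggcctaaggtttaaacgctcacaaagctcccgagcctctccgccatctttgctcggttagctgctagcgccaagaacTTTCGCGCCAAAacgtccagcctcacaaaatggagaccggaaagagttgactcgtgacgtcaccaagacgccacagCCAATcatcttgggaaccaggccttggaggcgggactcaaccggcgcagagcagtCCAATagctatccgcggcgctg
Mcm6, chr1:128359706-128359955, minus strand: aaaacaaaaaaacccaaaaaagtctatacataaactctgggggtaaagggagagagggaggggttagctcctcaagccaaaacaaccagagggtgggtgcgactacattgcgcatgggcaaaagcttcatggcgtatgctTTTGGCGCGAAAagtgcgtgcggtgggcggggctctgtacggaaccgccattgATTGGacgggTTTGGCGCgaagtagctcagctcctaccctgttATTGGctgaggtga
Mki67, chr7:135716380-135716629, minus strand: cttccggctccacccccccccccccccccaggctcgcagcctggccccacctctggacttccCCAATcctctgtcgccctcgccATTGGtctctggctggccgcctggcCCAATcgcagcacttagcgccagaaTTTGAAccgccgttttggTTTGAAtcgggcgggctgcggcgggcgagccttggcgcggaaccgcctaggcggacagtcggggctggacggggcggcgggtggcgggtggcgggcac
Of the 39 genes, 33 had at least 1 such window, and 8 of these (24.2%) held an E2F sequence, namely Orc1, Cdc6, Mcm5, Mcm6, Mcm7, Pola1, Rfc3 and Uhrf1. The same letters stood in 3.95% of the 10040 tested genes with a window, in 2.16% of all 27025 genes of the promoter table and in 1 of 31 G2 and mitosis genes. They stood in 8 of 23 other G1/S control genes (34.8%) and in 6 of 38 other replication genes (15.8%). CCAAT was found in 19 of the 33 and in 23 of the 31 (all tested genes, 40.6%), and TTTGAA in 4 of the 33 and 10 of the 31 (all tested genes, 13.3%). The core of the cell cycle homology region also stood in 8 of 38 other replication genes (21.1%) and 6 of 23 other G1/S control genes (26.1%). Its share in the G2 and mitosis genes was 32.3%, so these letters alone do not mark the G2 type. The letters counted just before that core stood in 20 of the 38 and 12 of the 23. E2F letters may overlap each other, as they do in both Mcm promoters, and a match describes letters in the window, not a bound site.

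Replication genes were nearly level between CYR61 and control macrophages. By edgeR's quasi-likelihood test with Benjamini-Hochberg adjustment over 15135 genes, 1 of the 39, E2f1, was higher at an adjusted p under 0.05, 0 were lower and 38 did not pass. Over all genes tested, 5.33% were higher and 2.63% lower by the same rule, or 7.96% in either direction, so the count of 1 is no more than the background. At an unadjusted p under 0.05, 7 of the 39 were higher and 0 of the 39 lower, against 11.2% and 9.26% of all genes. DESeq2 called 1 member and limma-voom 0. The median log2 fold change of the 39 was 0.02, against -0.01 for all genes tested. Above 0 lay 25 of the 39 members, against 47.5% of all genes. Libraries are bulk RNA, so fewer cells in a phase and less RNA per cell cannot be told apart.

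The data limited changes to small sizes. In 29 of the 39 genes the 95% interval of the fold change lay within 1.2-fold in either direction, and in all 39 it lay within 1.5-fold. The standard error of the log2 fold change ran from 0.04 to 0.14 with a median of 0.06. Of the 28 members with a control mean of at least 10 CPM (counts scaled to a common library size with TMM factors), the lowest bound was 0.842 times control and the highest 1.21 times. The widest intervals belonged to genes with few counts, such as Orc1 (47 to 78 counts in a library), whose fold change of 0.992 had an interval of 0.807 to 1.22. In no member did the 4 CYR61 libraries all stand above or all below the 7 controls, whereas the groups did not overlap in 7.16% of all genes tested (4.65% with CYR61 above, 2.5% below).

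**Figure D1:**
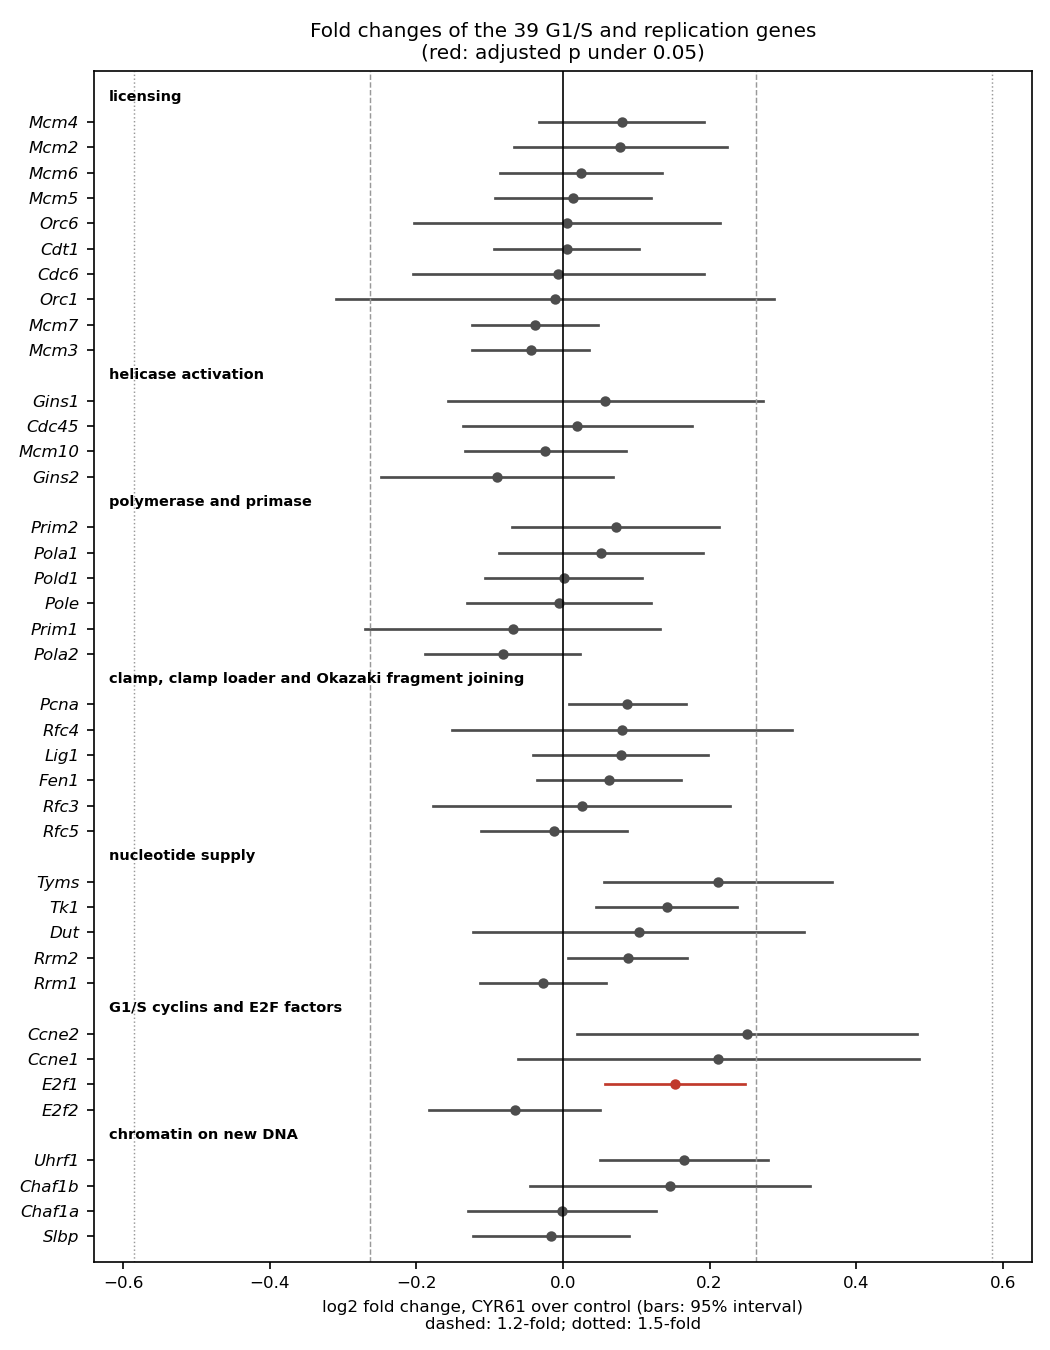
Fitted log2 fold changes (CYR61 over control) of the 39 genes with 95% intervals, grouped by role; dashed and dotted lines mark 1.2-fold and 1.5-fold. E2f1, in red, was the 1 gene past an adjusted p of 0.05, and every interval lay inside 1.5-fold.

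The library values rested on 14912123 to 21047654 counts per library. Macrophage markers were abundant. Their 9 genes summed to 22604 to 23986 CPM in controls and 25027 to 27236 CPM with CYR61. Lyz2 alone stood at 16582 to 17891 CPM in controls and 18428.5 to 20249.8 CPM with CYR61. Of the 9, 6 rose, where 5.33% of all genes did. None of the 8 marrow progenitor markers, of cells that cycle in marrow, passed the filter, and their summed level was 0.429 to 0.982 CPM in controls and 0.47 to 0.789 CPM with CYR61. Over all genes, 806 were higher and 398 lower, or 529 (3.5%) higher and 938 (6.2%) lower without TMM factors. CYR61 replicate 4 held 2.41% of its counts in ribosomal RNA genes, against 0.246 to 0.797% elsewhere, the highest of the 11 libraries. Without that library 0 members passed, and the log2 fold change of E2f1 was 0.14 (adjusted p = 0.116, edgeR). With all libraries and without ribosomal and mitochondrial RNA genes, E2f1 passed at 0.15 (adjusted p = 0.0444, edgeR).

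The G1/S switch held the 1 call. E2f1, a transcription factor that activates replication genes, ran from 30.5 to 35.2 CPM in controls with a median of 31.8 CPM. In CYR61 libraries it stood at 34.8, 34.7, 37.98 and 37.0 CPM. All 4 CYR61 values were above the control median and 2 were above the highest control, so the groups overlapped. E2f1 rose 1.11-fold (32.4 ± 1.597 to 36.1 ± 1.61 CPM, SD, n = 7 and n = 4; 95% interval 1.04 to 1.19), with an adjusted p of 0.0461 (edgeR, Benjamini-Hochberg). This is close to the threshold: 12 of 22 other fits lost the call, limma-voom and scaling by library size among them, with adjusted p from 0.016 to 0.161 over the 22. The call was lost without CYR61 replicate 2, 3 or 4 and without control replicate 1, 2, 3, 4, 5 or 6. In the authors' deposited table, E2f1 was likewise the 1 member under 0.05, with a log2 fold change of 0.174 and an adjusted p of 0.00635.

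E2f2, a second activating E2F factor, stood at 78.7 to 90.7 CPM in controls (median 81.8 CPM) and at 91.7, 77.0, 73.5 and 80.7 CPM with CYR61. Its CYR61 libraries held a value above all controls and 2 below all controls, with a log2 fold change of -0.07 (interval 0.881 to 1.04 times control). The cyclin E genes Ccne1 and Ccne2 activate the kinase of the G1/S switch. Ccne1 ran from 2.96 to 4.90 CPM in controls (median 3.74 CPM) and measured 4.16, 4.83, 4.70 and 4.04 CPM with CYR61. Ccne2 ran from 3.49 to 5.10 CPM in controls (median 4.398 CPM) and measured 4.60, 5.38, 5.93 and 5.35 CPM with CYR61. In both genes every CYR61 library lay above the control median, yet the groups overlapped and counts were only 56 to 109 in a library. Their fold changes were 1.16 (interval 0.958 to 1.40, adjusted p = 0.392, edgeR) and 1.19 (interval 1.01 to 1.40, adjusted p = 0.2, edgeR), which did not pass.

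The licensing genes held no call. Mcm2 to Mcm7 encode the 6 subunits of the helicase ring. Mcm2 measured 18.2 to 23.9 CPM in controls (median 21.0 CPM) and 22.5, 21.4, 21.8 and 24.1 CPM with CYR61. Mcm3 measured 44.3 to 48.9 CPM in controls (median 46.3 CPM) and 46.1, 42.5, 46.4 and 44.3 CPM with CYR61. Mcm4 measured 27.0 to 32.3 CPM in controls (median 30.7 CPM) and 29.1, 31.2, 32.8 and 32.5 CPM with CYR61. Outside the span of the controls lay 1 CYR61 value of Mcm2 (above), 1 of Mcm3 (below) and 2 of Mcm4 (above). Mcm5 measured 34.7 to 42.5 CPM in controls (median 38.6 CPM) and 38.5, 36.1, 39.3 and 39.7 CPM with CYR61. Mcm6 measured 55.1 to 68.0 CPM in controls (median 59.1 CPM) and 61.4, 55.6, 62.0 and 65.0 CPM with CYR61. Mcm7 measured 42.3 to 48.1 CPM in controls (median 47.1 CPM) and 44.9, 46.0, 43.6 and 44.4 CPM with CYR61. Every CYR61 value of Mcm5, Mcm6 and Mcm7 lay within the range of the controls. The log2 fold changes of the 6 ran from -0.04 (Mcm3) to 0.08 (Mcm4), and the adjusted p from 0.439 to 0.914 (edgeR).

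None of the loaders of the helicase passed either. Intervals were wide for Orc1 (0.807 to 1.22 times control), Orc6 (0.869 to 1.16) and Cdc6 (0.868 to 1.14). Cdt1, which brings the helicase to origins, stood at 40.8 ± 2.31 CPM in controls (SD, n = 7) and 40.9 ± 2.19 CPM with CYR61 (SD, n = 4). Cdc6, its partner in loading, stood at 5.27 ± 0.49 and 5.25 ± 0.339 CPM. The origin recognition genes Orc1 and Orc6 stood at 3.35 ± 0.522 and 3.31 ± 0.509 CPM, and at 6.75 ± 0.806 and 6.80 ± 0.586 CPM. Across the 10 licensing genes 0 passed in either direction and the median log2 fold change was 0.01. The 10 together summed to 286 to 319 CPM in controls and 288 to 305 CPM with CYR61. The medians of the other roles were -0.002 (helicase activation), -0.002 (polymerase and primase) and 0.07 (clamp, loader and Okazaki fragment genes). They were 0.10 for nucleotide supply, 0.18 for G1/S cyclins and E2F factors and 0.07 for chromatin on new DNA. Differences between roles were not tested.

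**Figure D2:**
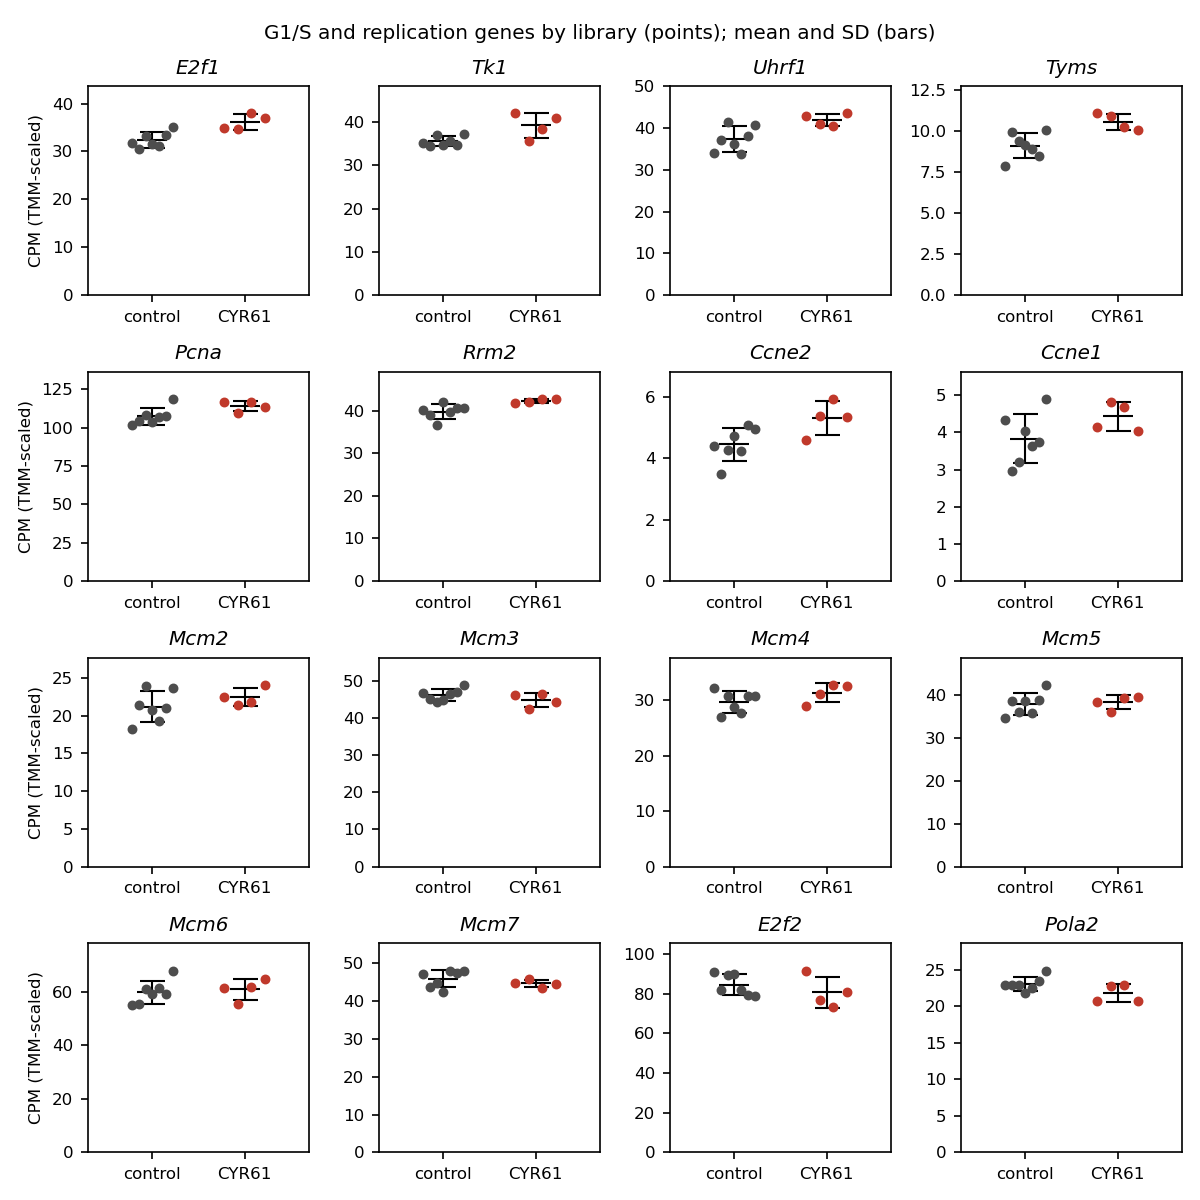
CPM (y axis, from 0) of 16 of the genes in each of 7 control (grey) and 4 CYR61 (red) libraries, with mean and SD as bars; a gene of each role other than helicase activation is shown. Control and CYR61 points overlap in every panel, and E2f1 is the 1 gene that passed the test.

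Of the genes that complete the helicase and copy the strands, none passed. Helicase activation was represented by Mcm10, Cdc45, Gins1 and Gins2, with fold changes of 0.983, 1.01, 1.04 and 0.939. In Gins2, a GINS subunit, CYR61 replicate 1 stood apart at 19.1 CPM, below the other 3 at 23.3 to 23.8 CPM and below the lowest control at 20.1 CPM. The primase genes Prim1 and Prim2, which lay the RNA primers, measured 0.953 and 1.05 times control. The polymerase genes Pold1 and Pole, for the catalytic subunits of the 2 main replicative polymerases, measured 1.00 and 0.996 times control. Pola1 and Pola2 encode subunits of the polymerase that extends the primers. Pola2 had the lowest p among the members that lay below control: 21.9 to 24.9 CPM in controls (median 22.9 CPM) and 20.8, 22.8, 22.9 and 20.7 CPM with CYR61, or 0.944 times control (interval 0.878 to 1.02, adjusted p = 0.387, edgeR). All 4 CYR61 values of Pola2 lay below the control median and 2 lay below the lowest control.

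None of the 6 clamp, loader and Okazaki fragment genes and none of the 5 nucleotide supply genes passed. Pcna, the sliding clamp, was the most abundant member per length, at 101.8 to 119 CPM in controls (median 107 CPM) and 117, 109.6, 117 and 114 CPM with CYR61. All CYR61 values lay above the control median and none above control replicate 7, whose 119 CPM stood far from the other controls, at most 108 CPM. The fold change was 1.06 (interval 1.01 to 1.12, adjusted p = 0.191, edgeR), and it passed without control replicate 7 (log2 fold change 0.11 against 0.09). The clamp loader genes Rfc3, Rfc4 and Rfc5, the flap nuclease gene Fen1 and the ligase gene Lig1 had fold changes of 1.02, 1.06, 0.992, 1.04 and 1.06.

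Tk1, the thymidine kinase of the salvage route, ran from 34.5 to 37.1 CPM in controls (median 35.2 CPM) and measured 42.0, 35.6, 38.4 and 41.0 CPM with CYR61. CYR61 replicate 2 lay among the controls and the other 3 above them. Its fold change was 1.10 (interval 1.03 to 1.18, adjusted p = 0.0693, edgeR), and it passed when CYR61 replicate 2 was left out, at a log2 fold change of 0.19. Tyms, which makes thymidylate anew, ran from 7.88 to 10.05 CPM in controls (median 9.15 CPM) and measured 11.1, 10.9, 10.3 and 10.04 CPM with CYR61. Of its CYR61 libraries, 3 exceeded every control and replicate 4 equalled the highest control within 0.01 CPM, for a fold change of 1.16 (interval 1.04 to 1.29, adjusted p = 0.0944, edgeR). Ribonucleotide reductase, which makes deoxynucleotides, is built from the products of Rrm1 and Rrm2. Rrm2, the S phase subunit, ran from 36.5 to 42.1 CPM in controls (median 40.1 CPM) and measured 41.9, 42.0, 42.7 and 42.6 CPM with CYR61, a fold change of 1.06 (adjusted p = 0.197, edgeR). Of the 4, 2 exceeded every control. Rrm1 stood at 89.2 ± 4.498 and 87.6 ± 4.18 CPM, and Dut, which removes dUTP, at 5.72 ± 0.826 and 6.15 ± 0.354 CPM, with 0.981 and 1.07 times control.

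Of the genes for chromatin on new DNA, Uhrf1, which recruits the maintenance DNA methyltransferase, lay highest against control. It ran from 33.6 to 41.5 CPM in controls (median 37.2 CPM) and measured 42.9, 40.8, 40.4 and 43.5 CPM with CYR61. All 4 CYR61 values exceeded the control median and 2 exceeded every control, at 1.12 times control (interval 1.04 to 1.21, adjusted p = 0.0758, edgeR). Uhrf1 passed when control replicate 3 or control replicate 7 was left out (log2 fold changes 0.19 and 0.19). Chaf1a and Chaf1b, subunits of the histone chaperone CAF-1, measured 0.999 and 1.11 times control, and Slbp, which binds the stem loop of replication-dependent histone mRNA, 0.989 times.

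Control replicate 7 carried many of the highest control values. It was the highest control for 17 of the 39 genes, and its median member lay 0.11 above the control mean on the log2 scale, against -0.07 to 0.03 in the other controls and 0.01 to 0.09 in the CYR61 libraries. Without it, 3 members passed as higher (E2f1, Pcna and Uhrf1) and 0 as lower, while 6.01% of all genes were called higher. With scaling by library size alone, 0 members passed and 18 of 39 log2 fold changes lay above 0. The members' median then was -0.02, against a median of -0.05 over all genes.

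**Figure D3:**
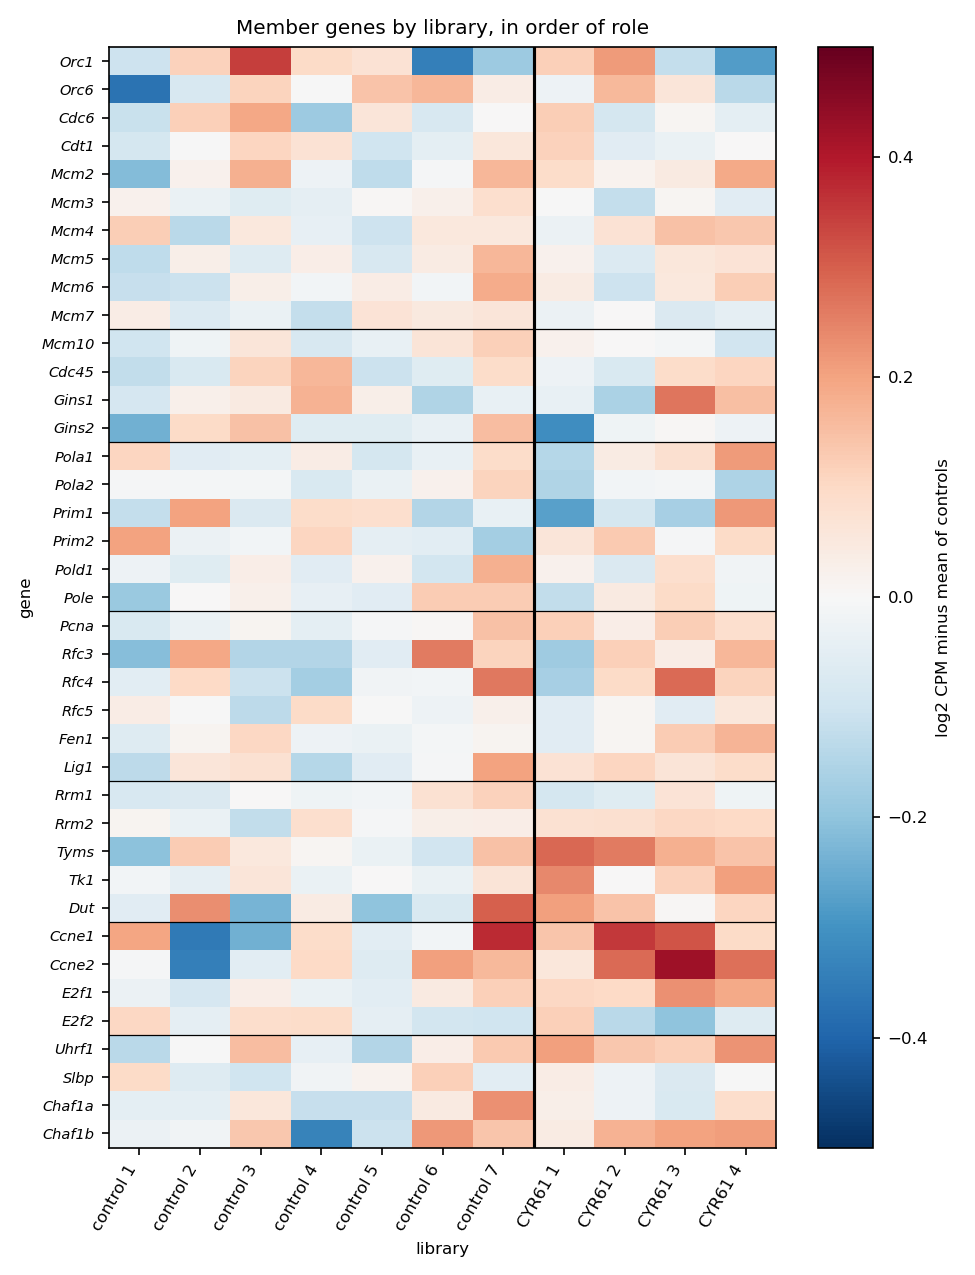
Log2 CPM of each gene (rows, in order of role) minus its mean over the controls, in 7 control and 4 CYR61 libraries (columns); red is above and blue below the control mean. Control 7 holds the highest control value of 17 of the 39 genes, and no gene separates the groups completely.

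Levels differed far more between genes than between groups. Per kilobase of the longest coding transcript in GENCODE M21, Pcna was highest in controls at 70.7 CPM per kb, followed by Tk1 (24.7), Rrm1 (22.3), Cdt1 (18.6), Rrm2 (18.1) and E2f2 (17.8 CPM per kb). The lowest were Orc1 (1.11), Cdc6 (1.14), Ccne2 (1.48) and Ccne1 (1.91 CPM per kb). The 6 helicase subunits, which assemble in equal number, spanned 6.29 (Mcm2) to 15.5 CPM per kb (Mcm7). Between controls the coefficient of variation of a member ran from 3.16% (Tk1) to 17.3% (Ccne1), with a median of 7.29%. Ccne1 is among the 11 members under 10 CPM, and its counting error alone comes to 11.5%. Estimated counts of 14 members were not whole numbers, which can arise where reads are shared with other features, and 14 members overlap an exon of a gene on the other strand in GENCODE M21. Tk1, Ccne2, Uhrf1 and Pcna are among those with counts that are not whole and E2f1 is in neither set.

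The replication genes outside the set, from a list of 48, held few calls. Of these, 2 rose, 0 fell and 46 did not pass, with a median log2 fold change of -0.03. The 2 make up 4.17% of the list, near the 5.33% of all genes that were higher. Samhd1, which degrades deoxynucleotides, ran from 345 to 376 CPM in controls and measured 437, 448, 419.9 and 424 CPM with CYR61, a rise of 1.19-fold (adjusted p = 4.04e-05, edgeR). Dck, the deoxycytidine salvage kinase, ran from 56.1 to 71.4 CPM in controls and measured 88.0, 82.5, 85.2 and 81.9 CPM with CYR61, a rise of 1.28-fold (adjusted p = 0.000159, edgeR). In both, every CYR61 library stood above every control, and both passed in each of the 22 other fits.

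Of 30 other genes that control the G1/S switch, 29 were tested, with 0 higher, 1 lower (3.45%, near the 2.63% of all genes) and a median log2 fold change of -0.04. The 1 was Cdkn1b, which encodes the cyclin-dependent kinase inhibitor p27. It ran from 58.8 to 65.8 CPM in controls (median 63.0 CPM) and measured 57.9, 55.3, 60.5 and 57.8 CPM with CYR61. Groups overlapped in 1 library, the log2 fold change was -0.12, and the adjusted p was 0.0466 (edgeR), a call lost in 11 of the 22 other fits: limma-voom, no low-count filter, and leaving out CYR61 replicate 1, 2 or 4 or any of control replicates 1 to 6. The D-type cyclins, which start the switch, were picked out with their values known. Ccnd1 stood at 13.6 ± 2.57 and 13.1 ± 1.04 CPM and Ccnd3 at 56.7 ± 3.58 and 57.4 ± 1.99 CPM, and Ccnd2 was too low to be tested. With scaling by library size alone 4 of the list passed as lower, when 6.2% of all genes did, and with library quality weights in limma-voom 3, when 3.43% of all genes did.

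Genes of G2 and mitosis were lower with CYR61 in the same libraries. Of 38, 0 rose, 29 fell and 9 did not pass, and all 38 log2 fold changes were below 0, with a median of -0.18 (0.884 times control). By the background above, 2.63% of all genes were lower. The members of lowest p were Cenpf, Mki67, Aspm, Kif23, Cenpe and Nuf2, genes of the kinetochore, the chromosome surface and the spindle, at 0.78 to 0.841 times control. Cenpf, for example, ran from 102 to 108 CPM in controls and measured 76.6, 81.5, 84.8 and 85.5 CPM with CYR61 (adjusted p = 2.09e-06, edgeR). Mki67, whose promoter is printed above, ran from 648 to 711 CPM in controls and measured 490, 533, 566 and 549.5 CPM with CYR61 (adjusted p = 1.28e-05, edgeR). CYR61 libraries lay below all controls in 26 of the 38, against 2.5% of all genes, and in 0 of the 39 replication genes. For 32 of the 39 replication genes the 95% interval lay wholly above -0.18. The other 7 were Orc1, Orc6, Cdc6, Gins2, Pola2, Prim1 and E2f2. The difference between the 2 lists was not tested as such. Of 63 tested histone genes, whose copies are near-identical and share reads, 0 rose and 6 (9.52%) fell, where 2.63% of all genes were lower. Their median log2 fold change was -0.09, with 61 below 0 and 2 above. At an unadjusted p under 0.05 (edgeR), 22 were lower and 0 higher, against 9.26% and 11.2% of all genes. By adjusted p there were 16 falls with scaling by library size alone (all genes, 6.2%) and 14 without control replicate 1 (2.45%). There was 1 without CYR61 replicate 2 (1.34%) and there were 2 without CYR61 replicate 4 (1.86%).

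**Figure D4:**
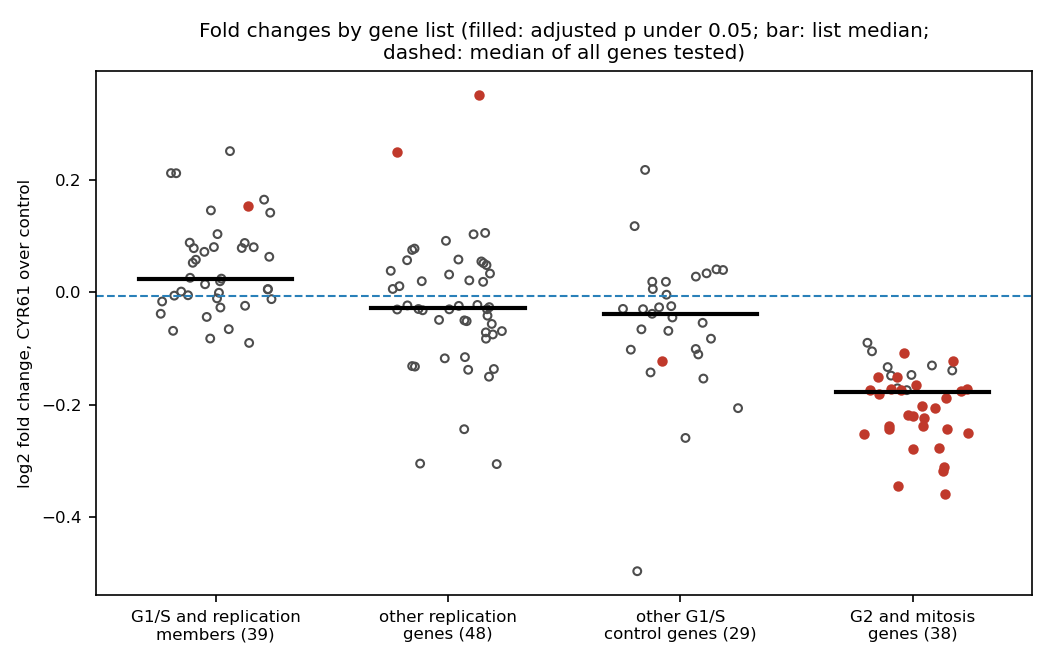
Log2 fold change (y axis, CYR61 over control) of each gene in 4 lists; filled points passed an adjusted p of 0.05, bars are list medians and the dashed line is the median of all genes tested. Replication members spread around the dashed line with a median of 0.02, and all 38 G2 and mitosis genes lie below 0.

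Summed over genes, the 39 replication members came to 1067, 1078, 1119, 1087, 1077, 1107 and 1174 CPM in control replicates 1 to 7. In CYR61 replicates 1 to 4 they came to 1125, 1098, 1134 and 1144 CPM. These sums overlap between the groups. The 38 G2 and mitosis genes came to 2868 to 2966 CPM in controls, and to 2376, 2447, 2570 and 2530 CPM in CYR61 replicates 1 to 4, with no overlap. The ratio of the first sum to the second was 0.37 to 0.405 in controls and 0.441 to 0.474 with CYR61. The highest of the control ratios belonged to replicate 7, and it stayed below every CYR61 ratio. Sums are led by abundant genes such as Pcna and Mki67 and are given as a description, with no test.

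**Figure D5:**
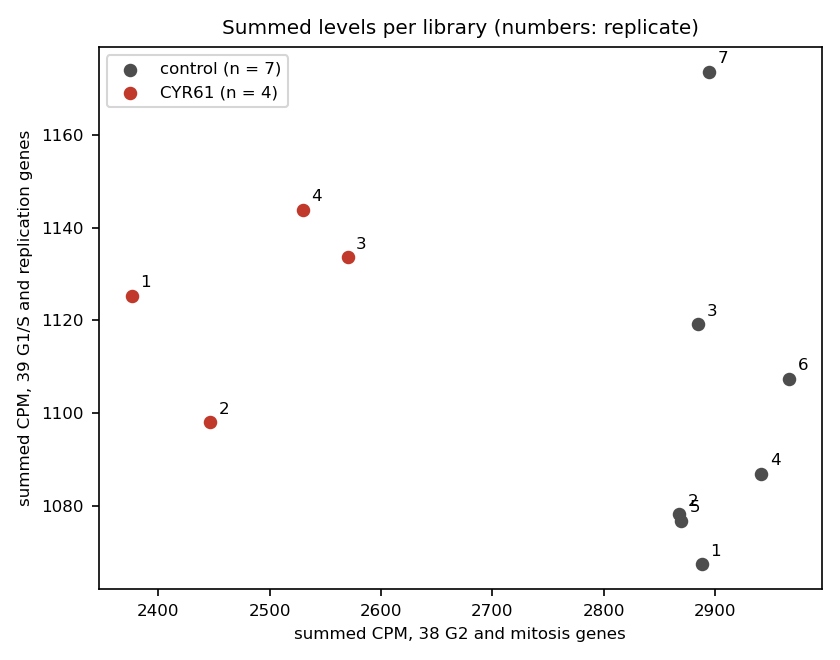
Summed CPM per library of the 39 replication genes (y axis) against that of the 38 G2 and mitosis genes (x axis), with replicate numbers beside the points; neither axis starts at 0. CYR61 libraries (red) sit left of all controls (grey), at 2376 to 2570 against 2868 to 2966 CPM, and within the span of the controls on the y axis.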

How the data were processed

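RNA of 7 control and 4 CYR61 libraries was sequenced as paired reads after ribosomal RNA removal, per the labels' protocols, so unspliced RNA can be included. DRAGEN is the tool listed, per the submitters' processing notes. Its version and role, the build, annotation and strand setting: not given in the sources used here. As deposited by the authors, the first table holds expected counts (estimated counts, not normalized) per gene. The 287 repeated rows (168 IDs, identical values) were dropped and counts rounded. The authors also deposited a table with log2 fold changes and log2 CPM, p-values and scores, whose method is not given; only its log2 fold change and adjusted p for members were used.

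Genes passing filterByExpr (15135) were fitted with TMM factors in edgeR 4.0.16 (R 4.3.3; glmQLFit, glmQLFTest, no covariates, 11 libraries), two-sided, with Benjamini-Hochberg adjustment and a threshold of 0.05. Standard errors are the absolute log2 fold change over the root of F, and 95% intervals use the fit's degrees of freedom. Lengths and exon overlaps came from GENCODE M21 by Ensembl ID (39 of 39 matched), promoters from RefSeq by symbol. Before use the procedure was run on simulated counts with the same dispersion for every gene, and the outcome is not given here. Alternatives (24) covered DESeq2 1.42.0, limma 3.58.1, scaling, filters, thresholds, the replicate block and leaving out each library.

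The members, lists and alternatives were chosen with earlier results of these data known. Named genes were all 39 members (values by library for those past the threshold and for Mcm2 to Mcm7, Pcna, Ccne1, Ccne2, E2f1, Tk1 and Rrm2) and up to 6 called genes of lowest p in each other list. E2f2, Tyms, Uhrf1, Pola2, Gins2 and the D-type cyclins were detailed, and the 3 printed promoters picked, once their values or matches were known. Markers of macrophages, marrow progenitors and 9 other cell types were summed; of the latter, B cell markers (55.3 to 68.6 CPM in controls, 46.0 to 50.1 with CYR61) and endothelial markers (144 to 157 and 117 to 137 CPM) had 1 call each, lower, neutrophil (40.1 to 46.6 and 37.8 to 46.4 CPM) and osteoclast markers (157 to 165 and 158 to 169 CPM) 1 each, higher, and dendritic, T and NK, erythroid, stromal and mast cell lists, at most 2.41 CPM, had 0.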

Additional observations from a re-analysis of the deposited data

Results flagged for a closer look

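In 82 groups of values (39 members and 2 sums, each in controls and in CYR61 libraries), 2 held a library far from the others, by a gap larger than Dixon's 95% critical value. Chance flags about 1 in 20 groups. The highest Pcna value among controls, 118.7 CPM in control replicate 7, lay apart from the next at 108.2 CPM. The lowest Gins2 value among CYR61 libraries, 19.13 CPM in replicate 1, lay apart from the next at 23.31 CPM.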

How the results depend on the processing

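The count of replication genes called higher was 1. It was 0 with library size scaling, limma-voom, no low-count filter or an adjusted p under 0.01, and 4 with an adjusted p under 0.1. Leaving out 1 library at a time gave 0 to 3. In replicates 1 to 4 of both groups it was 2 (E2f1 and Pcna) with the replicate number as a block and 2 without the block. The count called lower was 0 in all 24 alternatives, and 35 of the 39 genes passed in no fit. The median log2 fold change of the members stayed between -0.02 (library size scaling) and 0.05 (without CYR61 replicate 2), within 1 SD between controls (0.06) of the main value. Over the 22 other fits, 0 to 9 of the 39 log2 fold changes changed sign (9 without CYR61 replicate 4, 8 without CYR61 replicate 3, 8 in replicates 1 to 4 without the block and 7 with library size scaling), none of them past the threshold. Over all genes, 1204 were called, 640 at an adjusted p under 0.01, and 788 to 1372 when 1 library was left out, lowest without CYR61 replicate 2. The 29 falls among G2 and mitosis genes ranged from 20 to 34 in the other fits. No pairing by replicate number was seen, though these values cannot exclude it. Deviations of same-numbered control and CYR61 libraries correlated at -0.03 to 0.03, and 1 of 4 CYR61 libraries correlated best with the control of its number. Low depth limits Orc1, Ccne1, Ccne2, Rfc4, Gins1 and Cdc6, whose counts were 47 to 109 in a library. The cause of each lost call was not tested.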
